A study of Mus musculus with 6 samples.

Results

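Heart muscle answers noradrenaline and adrenaline through adrenergic receptors on the cell surface. Beta receptors act through the G protein Gs on adenylyl cyclases, which make cyclic AMP (cAMP), and cAMP activates protein kinase A, which phosphorylates calcium channels and other proteins of contraction. Alpha-1 receptors act through Gq on phospholipase C and protein kinase C. Phosphodiesterases break down cAMP and its relative cGMP and so limit both signals.

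The 9 genes described here were taken by name from the 29385 genes listed for 6 mouse heart libraries: the receptors Adrb1, Adra1a and Adra1b, the cyclases Adcy5 and Adcy6, and the phosphodiesterases Pde3a, Pde4d, Pde1c and Pde5a. The choice is a list of names with no threshold on a measured value, made with earlier results of these data known. All 9 passed the filter on low counts. The libraries form 3 groups of 2: Myh6 RH/RQ mice given AAV-hpCas13d, Myh6 RH/RQ mice given vehicle, and Myh6 RH/+ mice given vehicle. Alpha myosin heavy chain is the product of Myh6. Its alleles RH and RQ are not spelled out in the labels, and every group carries an altered Myh6, so none is wild type. AAV-hpCas13d delivers, by adeno-associated virus, a version of the guide-directed RNA-cutting enzyme Cas13d. The guide, the promoter and the dose are not given in the sources used here. Hearts were sampled 12 months after neonatal administration, and poly(A) RNA was sequenced. The labels leave unsaid whether 2 samples of a group are separate mice, so each p-value reflects sample-to-sample spread alone, which may be technical.

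Levels are in CPM, gene reads scaled to a common library total, and those totals ran between 36269261 and 51017058 reads. The least covered of the 9 genes, Pde5a, had between 188 and 313 reads in a library. The RH/RQ vehicle libraries stood apart in sex-linked transcripts. Xist, transcribed from the inactive X chromosome, was at 299 and 326 CPM in RH/RQ AAV-hpCas13d hearts, 0.274 and 0.0516 CPM in RH/RQ vehicle hearts, and 280 and 265 CPM in RH/+ vehicle hearts. The Y-linked gene Ddx3y had 85.2 and 85.2 CPM in RH/RQ vehicle hearts, against 0 reads in each of the other 4 libraries. In the comparisons that involve RH/RQ vehicle hearts, sex and genotype or treatment therefore cannot be told apart. In whole hearts, fewer cells of a type and less RNA per cell cannot be told apart either. Summed cardiomyocyte markers lay between 54412 and 65082 CPM over the 6 libraries, and none of the 8 markers was at 0 in all 6. Myh6, the gene altered in every group, is among the 8.

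Both pairs of paralogs share stretches of sequence, shown here because reads that fall wholly inside such a run cannot be assigned to a gene. The longest run shared by Adcy5 and Adcy6 in their GENCODE M21 transcripts is 29 bases. It is given in capitals below, within coding bases 3280 to 3338 of Adcy5 and 3001 to 3059 of Adcy6.
Adcy5: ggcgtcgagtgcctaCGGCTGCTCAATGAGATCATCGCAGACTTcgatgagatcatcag
Adcy6: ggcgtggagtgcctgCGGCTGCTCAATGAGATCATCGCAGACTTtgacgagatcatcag
Adra1a and Adra1b share at most 15 bases, again in capitals, within coding bases 177 to 221 of Adra1a and 234 to 278 of Adra1b.
Adra1a: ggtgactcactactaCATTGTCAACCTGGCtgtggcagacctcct
Adra1b: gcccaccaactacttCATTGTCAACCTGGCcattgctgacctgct
The longest identical run in any of the within-family pairs of these genes is the one in the cyclases.

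Within each family the levels were compared per kb of exon, on the mean of the 6 libraries. Of the 8 adrenergic receptor genes reported here 4 averaged at least 1 CPM. Adra1b, an alpha-1 receptor, was the highest at 9.71 CPM per kb, followed by Adrb1, the main cardiac beta receptor, at 6.37 CPM per kb. Below them, Adra1d stood at 1.66 CPM per kb and Adra1a at 1.64 CPM per kb. The place of Adra1a depends on the length used. The other length used was that of the main coding transcript, here the protein-coding transcript with the longest coding sequence. CPM was the same with either length, so reads from exons outside that transcript were still counted. With that length Adra1a stood above Adra1d, at 3.47 CPM per kb. Of 10 cyclase genes 7 averaged at least 1 CPM. Adcy6 led them at 35.2 CPM per kb, ahead of Adcy5 at 12.0 CPM per kb and Adcy4 at 6.94 CPM per kb, and that order was the same with either length. Of 24 phosphodiesterase genes, listed by gene name and not by enzyme activity, 19 averaged at least 1 CPM. Pde6d was the highest of them at 15.7 CPM per kb, followed by Pde4a at 10.6, Pde8a at 8.93 and Pde7a at 7.14 CPM per kb. Pde3a, which hydrolyses cAMP and is inhibited by cGMP, was at 6.86 CPM per kb, Pde1c, a calcium and calmodulin dependent enzyme, at 2.86 CPM per kb, Pde4d, a cAMP-specific enzyme, at 2.23 CPM per kb, and Pde5a, the cGMP-specific target of sildenafil, at 0.580 CPM per kb. Over the main coding transcript, Pde1c came to 18.2 CPM per kb and Pde4d to 10.9 CPM per kb, so their ranks among phosphodiesterases depend on the length used. Pde3a held rank 5 of the 19 over all exons and rank 9 over the main coding transcript. The group means of all these genes are drawn in the plot of family levels per length, where neighbours such as Adra1d and Adra1a exchange places between groups.

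**Figure D1:**
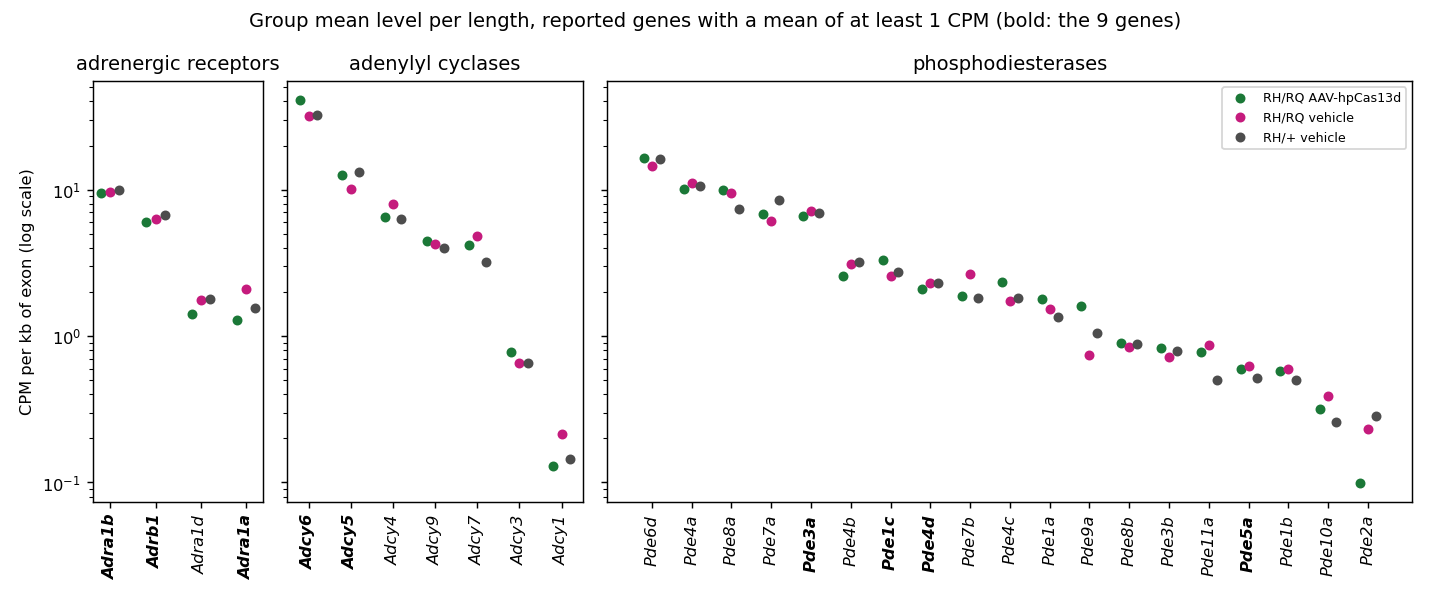
Mean CPM per kb of exon in each group, on a log axis, for the reported adrenergic receptor, adenylyl cyclase and phosphodiesterase genes that averaged at least 1 CPM over the 6 libraries, with the 9 genes in bold. Each point is the mean of 2 libraries; Adcy6 is the highest gene of all 3 families, at 40.8 CPM per kb in RH/RQ AAV-hpCas13d hearts, 32.1 in RH/RQ vehicle hearts and 32.6 in RH/+ vehicle hearts.

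Adrb1 (chromosome 19, 56722199 to 56733113, plus strand, all coordinates from GENCODE M21 on GRCm38) couples to Gs and drives the rise of heart rate and force. It was at 22.1 and 18.7 CPM in RH/RQ AAV-hpCas13d hearts, 22.3 and 20.5 CPM in RH/RQ vehicle hearts, and 21.8 and 23.9 CPM in RH/+ vehicle hearts. The 3 groups overlapped, and the coefficient of variation over all 6 libraries was 8.29%. On log2(CPM + 1), tested with limma over all 16804 genes that passed the filter, the change was −0.09 (SE 0.12, 95% interval −0.35 to 0.17, adjusted p = 0.786) in RH/RQ vehicle against RH/+ vehicle hearts. Between RH/RQ AAV-hpCas13d and RH/RQ vehicle hearts it was −0.07, with a 95% interval of −0.33 to 0.19 and a limma adjusted p of 0.879.

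Adra1a (chromosome 14, 66635251 to 66771168, plus strand), a Gq-coupled receptor, varied most among the 9, with a coefficient of variation of 23.6% over the 6 libraries. It was at 11.6 and 10.8 CPM in RH/RQ AAV-hpCas13d hearts, 17.1 and 19.3 CPM in RH/RQ vehicle hearts, and 12.1 and 15.2 CPM in RH/+ vehicle hearts. Both RH/RQ vehicle libraries were above the other 4, and both AAV-hpCas13d libraries were below the rest. Adra1a fell to 11.2 ± 0.5 CPM in RH/RQ AAV-hpCas13d hearts, against 18.2 ± 1.5 CPM in RH/RQ vehicle hearts (SD, n = 2 each), a log2 change of −0.65 (SE 0.14, 95% interval −0.94 to −0.36, limma adjusted p = 0.0120). It was the only one of the 9 genes called in that comparison, in which 2.05% of all tested genes were called in either direction, 1.22% higher and 0.827% lower. Without the second RH/RQ vehicle library the change was −0.57 with a limma adjusted p of 0.212. In the authors' deposited table for the same comparison its log2 fold change is −0.756 with an adjusted p of 0.00161, and it is the only one of the 9 genes on their short lists. In RH/RQ vehicle against RH/+ vehicle hearts the difference was 0.40 (95% interval 0.11 to 0.69), which did not pass adjustment (limma adjusted p = 0.119). That comparison shares the RH/RQ vehicle libraries with the one above. The difference was −0.25 (95% interval −0.54 to 0.04, limma adjusted p = 0.416) and did not pass in RH/RQ AAV-hpCas13d against RH/+ vehicle hearts, where 0 of 5 sex-linked genes were called by limma, none of them at an unadjusted p under 0.05.

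Adra1b (chromosome 11, 43774606 to 43901210, minus strand), the other Gq-coupled receptor, was at 34.7 and 29.6 CPM in RH/RQ AAV-hpCas13d hearts, 33.2 and 32.0 CPM in RH/RQ vehicle hearts, and 31.9 and 35.5 CPM in RH/+ vehicle hearts. Its groups overlapped in every comparison. The ratio of Adra1a to Adra1b reads within a library, which does not depend on the library total, was 0.334 and 0.366 in RH/RQ AAV-hpCas13d hearts, 0.515 and 0.602 in RH/RQ vehicle hearts, and 0.379 and 0.427 in RH/+ vehicle hearts. RH/RQ vehicle libraries had the highest ratios and did not overlap with either other group. With 2 libraries against 2 an exact two-sided permutation test cannot go below p = 0.333, the value reached for each of these differences.

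**Figure D2:**
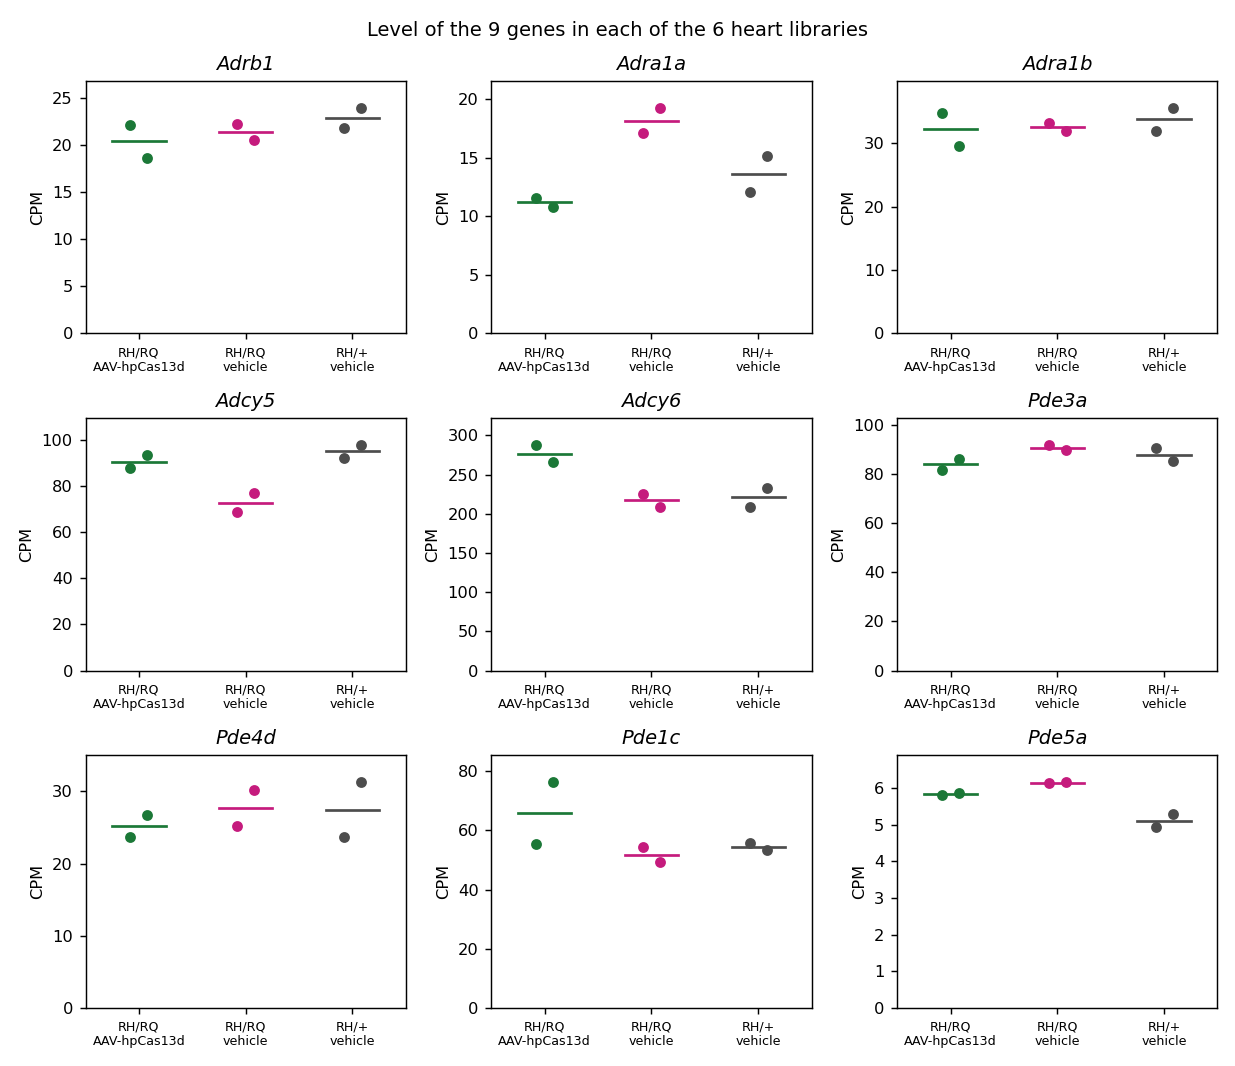
CPM of each of the 9 genes in the 6 libraries, with 1 point per library and a line at the mean of the 2 libraries of a group, every axis starting at 0. Adra1a was highest at 17.1 and 19.3 CPM in RH/RQ vehicle hearts, Adcy5 was lowest there at 68.6 and 76.9 CPM, and Adcy6 was highest in RH/RQ AAV-hpCas13d hearts at 288 and 266 CPM.

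Adcy5 (chromosome 16, 35154877 to 35305738, plus strand) and Adcy6 are the closely related calcium-inhibited cyclases of cardiomyocytes. Adcy5 was at 87.7 and 93.2 CPM in RH/RQ AAV-hpCas13d hearts, 68.6 and 76.9 CPM in RH/RQ vehicle hearts, and 92.3 and 97.6 CPM in RH/+ vehicle hearts. Both RH/RQ vehicle libraries were below the other 4, and the other groups overlapped. Adcy5 fell to 72.8 ± 5.8 CPM in RH/RQ vehicle hearts, against 94.97 ± 3.77 CPM in RH/+ vehicle hearts (SD, n = 2 each), a log2 change of −0.38 (SE 0.10, 95% interval −0.58 to −0.18, limma adjusted p = 0.0190). No other of the 9 genes was called in that comparison, where 4.99% of all tested genes were called in either direction, 3.48% higher and 1.51% lower. The call was lost without the first RH/RQ vehicle library (change −0.30, limma adjusted p = 0.252), without the first RH/+ library (−0.42, 0.103) and without the second (−0.34, 0.198). In the authors' deposited table its log2 fold change is −0.432 with an adjusted p of 0.00190, and it is not on their short list. Between RH/RQ AAV-hpCas13d and RH/RQ vehicle hearts the difference was 0.31 (95% interval 0.11 to 0.51, limma adjusted p = 0.108), and between RH/RQ AAV-hpCas13d and RH/+ vehicle hearts it was −0.07 (95% interval −0.27 to 0.13, limma adjusted p = 0.792).

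Cell type markers also differed between the vehicle groups. The summed cardiomyocyte markers, Myh6 included, were 54412 and 57672 CPM in RH/RQ vehicle hearts, against 60714 and 65082 CPM in RH/+ vehicle hearts. They were 58557 and 58242 CPM in RH/RQ AAV-hpCas13d hearts. The summed fibroblast markers were 3439 and 3262 CPM in RH/RQ vehicle hearts, against 2306 and 2735 CPM in RH/+ vehicle hearts. In RH/RQ AAV-hpCas13d hearts they were 3984 and 3394 CPM, overlapping RH/RQ vehicle hearts. In RH/RQ vehicle against RH/+ vehicle hearts 1 of the 8 cardiomyocyte markers had a log2 change above 0, and limma called 0 of them. Of the 10 fibroblast markers 9 had a log2 change above 0, and limma called 6 higher. None of the 8 cardiomyocyte or 10 fibroblast markers was at 0 in all libraries, and their part in the Adcy5 result was not tested.

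Adcy6 (chromosome 15, 98589973 to 98610076, minus strand) was at 288 and 266 CPM in RH/RQ AAV-hpCas13d hearts, 226 and 209 CPM in RH/RQ vehicle hearts, and 209 and 233 CPM in RH/+ vehicle hearts. Both AAV-hpCas13d libraries were above the other 4, while the vehicle groups overlapped. The difference was 0.35 (SE 0.09, 95% interval 0.15 to 0.54) between RH/RQ AAV-hpCas13d and RH/RQ vehicle hearts and 0.33 (95% interval 0.13 to 0.52) between RH/RQ AAV-hpCas13d and RH/+ vehicle hearts. Neither passed adjustment in the reported fit of all 6 libraries, with limma adjusted p-values of 0.0594 and 0.0655. Without the second AAV-hpCas13d library the differences were 0.40 and 0.38. With all 6 libraries, neither edgeR (adjusted p = 0.201 and 0.376) nor DESeq2 (0.0553 and 0.263) called Adcy6 in these comparisons. In the authors' deposited values its adjusted p was 0.114 and 0.405. Exons of Adcy6 overlap those of the antisense gene Gm29331 over 605 bases, and without a stated strand setting reads of both strands cannot be told apart there.

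The ratio of Adcy6 to Adcy5 reads within a library was 3.28 and 2.86 in RH/RQ AAV-hpCas13d hearts, 3.29 and 2.72 in RH/RQ vehicle hearts, and 2.27 and 2.38 in RH/+ vehicle hearts. All 4 RH/RQ libraries were above both RH/+ libraries, and the RH/RQ groups overlapped. An exact two-sided permutation test gave p = 0.333 for each RH/RQ group against RH/+ vehicle hearts, the smallest it can give with 2 libraries against 2, so no difference of the ratio passed a test. Against RH/+ vehicle hearts, Adcy5 was called lower in RH/RQ vehicle hearts, and neither cyclase was called in RH/RQ AAV-hpCas13d hearts.

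**Figure D3:**
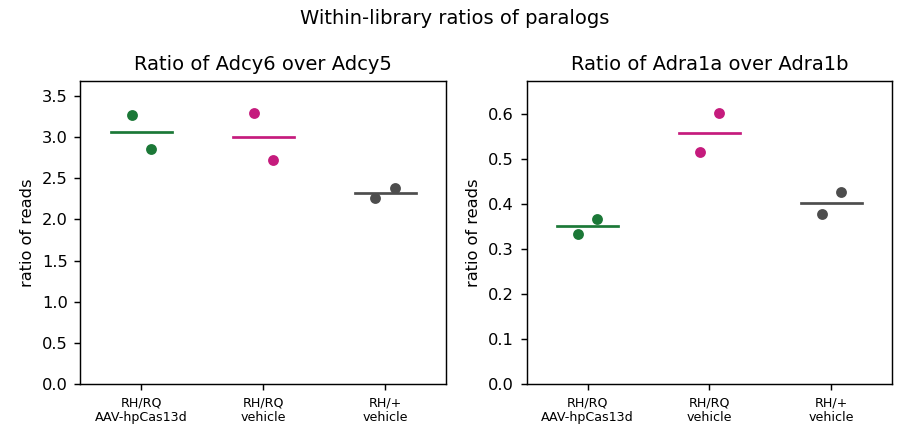
Ratio of Adcy6 to Adcy5 reads (left) and of Adra1a to Adra1b reads (right) in each of the 6 libraries, with a line at the mean of the 2 libraries of a group. The cyclase ratio lies between 2.72 and 3.29 in the 4 RH/RQ libraries and at 2.27 and 2.38 in RH/+ vehicle hearts, and the receptor ratio is highest in RH/RQ vehicle hearts, at 0.515 and 0.602.

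Sequence upstream of the transcription start was available in a RefSeq table for 6 of the 9 genes, with 9 windows of 250 bases on GRCm38.p6. The windows of Adcy5, which was called, and of Adrb1, whose groups overlapped, are shown to place both genes side by side, with motif matches in capitals. The letters searched, on both strands, were TGACG, the core of the cAMP response element, GGGCGG, the GC box, TATAAA, the TATA box, and CATTCC, the M-CAT motif. Matches of TGACG and GGGCGG do not overlap each other in these windows. Adcy5 is at chr16:35154614-35154863 and Adrb1 at chr19:56721867-56722116, both on the plus strand.
Adcy5: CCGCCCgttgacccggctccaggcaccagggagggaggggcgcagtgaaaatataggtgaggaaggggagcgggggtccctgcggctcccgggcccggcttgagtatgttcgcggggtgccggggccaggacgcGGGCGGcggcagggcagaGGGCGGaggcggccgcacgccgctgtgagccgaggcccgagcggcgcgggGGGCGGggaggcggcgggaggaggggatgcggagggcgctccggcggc
Adrb1: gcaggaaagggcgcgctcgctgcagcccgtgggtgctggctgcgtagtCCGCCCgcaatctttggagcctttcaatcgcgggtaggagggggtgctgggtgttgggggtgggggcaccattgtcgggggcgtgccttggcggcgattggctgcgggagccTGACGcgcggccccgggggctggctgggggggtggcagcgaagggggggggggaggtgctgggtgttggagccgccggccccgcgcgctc
The Adcy5 window holds 4 GC boxes and no TGACG, and the Adrb1 window 1 GC box and 1 TGACG, which lies 90 bases before the start. TGACG is held by 17.8% of the 32851 windows of this length that RefSeq provided, GGGCGG by 32.7%, TATAAA by 12.4% and CATTCC by 12.6%. Neither TATAAA nor CATTCC is found in any of the 9 windows. G and C make up 78.0% of the Adcy5 window and 74.0% of the Adrb1 window, beside a median of 52.4% over all windows. A match describes the letters and does not show binding. Of the other 7 windows none holds TGACG, and GGGCGG is found once in 1 of the 2 Adra1b windows and once in the Pde5a window.

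None of the 4 phosphodiesterases was called in any comparison by limma, edgeR or DESeq2. Pde1c alone had an unadjusted limma p under 0.05, in both comparisons of RH/RQ AAV-hpCas13d hearts. Pde3a (chromosome 6, 141249269 to 141507448, plus strand) was at 81.5 and 86.1 CPM in RH/RQ AAV-hpCas13d hearts, 91.7 and 89.7 CPM in RH/RQ vehicle hearts, and 90.3 and 85.3 CPM in RH/+ vehicle hearts. It varied least of the 9, with a coefficient of variation of 4.36%, and its 95% intervals lay between −0.30 and 0.24 on the log2 scale in all 3 comparisons. Its exons overlap 741 bases of the antisense gene Gm28523, which was itself at 0.765 to 1.97 CPM. Pde4d (chromosome 13, 108449948 to 109953461, plus strand) was at 23.6 and 26.8 CPM in RH/RQ AAV-hpCas13d hearts, 25.2 and 30.2 CPM in RH/RQ vehicle hearts, and 23.6 and 31.3 CPM in RH/+ vehicle hearts. The 2 RH/+ libraries spanned all the others, and the log2 differences were −0.13 in RH/RQ AAV-hpCas13d against RH/RQ vehicle hearts and 0.02 in RH/RQ vehicle against RH/+ vehicle hearts (limma adjusted p = 0.754 and 0.960).

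Pde1c (chromosome 6, 56069804 to 56569103, minus strand) was at 55.5 and 76.3 CPM in RH/RQ AAV-hpCas13d hearts, 54.3 and 49.2 CPM in RH/RQ vehicle hearts, and 55.7 and 53.4 CPM in RH/+ vehicle hearts. The second AAV-hpCas13d library was above the other 5, which lay between 49.2 and 55.7 CPM. The difference was 0.33 between RH/RQ AAV-hpCas13d and RH/RQ vehicle hearts (95% interval 0.08 to 0.57, limma adjusted p = 0.211). That value rests on 1 library: without the first AAV-hpCas13d library it was 0.55 (limma adjusted p = 0.00815), and without the second it was 0.10. Against RH/+ vehicle hearts it was 0.25 (limma adjusted p = 0.322), and 0.48 without the first AAV-hpCas13d library (0.0253). Nppa, the atrial natriuretic peptide, was also highest in that library. It was at 428 and 753 CPM in RH/RQ AAV-hpCas13d hearts, 112 and 117 CPM in RH/RQ vehicle hearts, and 110.03 and 143 CPM in RH/+ vehicle hearts. The sum of the other 7 atrial markers did not follow Nppa. Among them, Dkk3 was highest in the second AAV-hpCas13d library at 21.1 CPM. Limma called Dkk3 and Nppa higher in RH/RQ AAV-hpCas13d against RH/+ vehicle hearts. Of the 6 atrial markers tested, Nppa included, 3 had a log2 change above 0 in that comparison, and 5 did against RH/RQ vehicle hearts. The sum of the other 7 was 67.1 and 64.8 CPM in RH/RQ AAV-hpCas13d hearts, 50.2 and 60.2 CPM in RH/RQ vehicle hearts, and 54.0 and 64.96 CPM in RH/+ vehicle hearts. With Nppa the sum was 495 and 818 CPM in RH/RQ AAV-hpCas13d hearts, 162 and 177 CPM in RH/RQ vehicle hearts, and 164 and 208 CPM in RH/+ vehicle hearts. None of the 8 was at 0 in every library, and their part in the Pde1c, Adcy6 and Adra1a values was not tested.

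Pde5a (chromosome 3, 122728947 to 122859374, plus strand) was at 5.82 and 5.88 CPM in RH/RQ AAV-hpCas13d hearts, 6.14 and 6.16 CPM in RH/RQ vehicle hearts, and 4.93 and 5.29 CPM in RH/+ vehicle hearts. No groups overlapped, yet the differences were small: 0.23 in RH/RQ vehicle against RH/+ vehicle hearts (95% interval −0.11 to 0.56, limma adjusted p = 0.527) and −0.06 in RH/RQ AAV-hpCas13d against RH/RQ vehicle hearts (95% interval −0.40 to 0.28, limma adjusted p = 0.926). Pde5a is abundant in vascular smooth muscle, whose 12 summed markers were 1470 and 1544 CPM in RH/RQ AAV-hpCas13d hearts, 1465 and 1381 CPM in RH/RQ vehicle hearts, and 1627 and 1656 CPM in RH/+ vehicle hearts. In RH/RQ vehicle against RH/+ vehicle hearts 2 of the 12 markers were called, Acta2 and Abcc9, both lower, while 8 of the 12 had a log2 change above 0, with a median of 0.08, and their part in the Pde5a values was not tested.

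**Figure D4:**
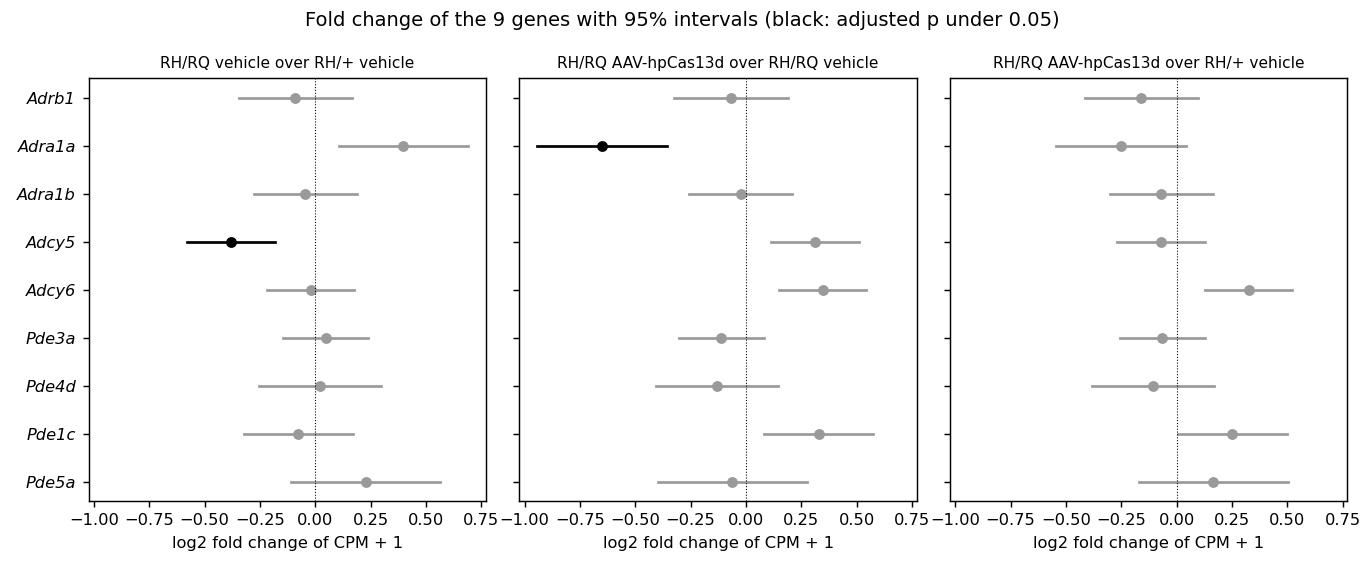
Log2 fold change of CPM + 1 for the 9 genes in the 3 comparisons, with 95% intervals from the limma fit of all 6 libraries, black where the adjusted p was under 0.05. Adcy5 at −0.38 in RH/RQ vehicle over RH/+ vehicle hearts and Adra1a at −0.65 in RH/RQ AAV-hpCas13d over RH/RQ vehicle hearts are the called values.

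Over the 9 genes the median log2 change was −0.02 in RH/RQ vehicle against RH/+ vehicle hearts, −0.06 in RH/RQ AAV-hpCas13d against RH/RQ vehicle hearts and −0.07 in RH/RQ AAV-hpCas13d against RH/+ vehicle hearts, beside 0.04, 0.04 and 0.08 over all tested genes. In RH/RQ AAV-hpCas13d against RH/+ vehicle hearts limma called 0 of the 9 genes, edgeR 0 and DESeq2 0, while limma called 2.86% of all tested genes, 2.33% higher and 0.53% lower. At an unadjusted p under 0.05, limma had 2 of the 9 in that comparison, Adcy6 and Pde1c. Of all 16804 tested genes, 2544 were under that threshold in the same comparison.

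Genes of the pathway, the 9 included, were given by list, 170 tested genes in all. Of these, 25 were called in at least 1 comparison, 23 of them outside the 9. Of all 16804 tested genes 7.08% were called in at least 1. The lists were chosen with earlier results of these data known, so setting the count beside that share is not a test of the pathway. Among cyclases, 9 were tested, and besides Adcy5 only Adcy7 was called. Adcy7 rose to 34.8 and 30.1 CPM in RH/RQ vehicle hearts, against 20.4 and 22.7 CPM in RH/+ vehicle hearts (log2 change 0.57, limma adjusted p = 0.00425), so its direction was opposite to that of Adcy5. It was at 29.3 and 27.2 CPM in RH/RQ AAV-hpCas13d hearts. Adcy7 is known from blood and immune cells, and the 8 summed macrophage markers were 460 and 419 CPM in RH/RQ vehicle hearts, against 347 and 343 CPM in RH/+ vehicle hearts, with none at 0 in all libraries. Their part in the Adcy7 value was not tested. The Adcy7 call was lost without the first RH/RQ vehicle or the first RH/+ library (limma adjusted p up to 0.107). Of the 6 receptors tested and reported here, none outside the 9 genes was called in any comparison.

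Of 20 phosphodiesterases tested, 1 fell and 0 rose in RH/RQ vehicle against RH/+ vehicle hearts. In RH/RQ AAV-hpCas13d hearts 1 rose and 0 fell against RH/RQ vehicle hearts, and 1 rose and 1 fell against RH/+ vehicle hearts. Beside these counts, 4.99%, 2.05% and 2.86% of all tested genes were called in the 3 comparisons in that order, in either direction. The cAMP-specific Pde7a fell to 47.6 and 46.9 CPM in RH/RQ vehicle hearts, against 65.8 and 65.1 CPM in RH/+ vehicle hearts (log2 change −0.46, limma adjusted p = 0.00541). The cGMP-specific Pde9a rose to 6.26 and 5.17 CPM in RH/RQ AAV-hpCas13d hearts, against 3.41 and 1.88 CPM in RH/RQ vehicle hearts (0.91, 0.0123). Pde8a, a high-affinity cAMP enzyme, was at 39.1 and 41.2 CPM in RH/RQ AAV-hpCas13d hearts, against 31.0 and 28.8 CPM in RH/+ vehicle hearts, called by limma (0.41, adjusted p = 0.0319) but by neither edgeR (adjusted p = 0.133) nor DESeq2 (0.150). Pde2a, which is stimulated by cGMP, fell to 0.744 and 0.475 CPM in RH/RQ AAV-hpCas13d hearts, against 1.92 and 1.58 CPM in RH/+ vehicle hearts (−0.77, limma adjusted p = 0.0135). Of the 6149 exon bases of Pde2a, 3955 are shared with Gm45837 on the same strand, which was listed at no more than 0.0784 CPM. Reads that fall wholly inside the shared bases fit both genes, and their part in the Pde2a values was not tested. Each of these calls was lost without some libraries: Pde7a without the second RH/RQ vehicle or either RH/+ library (adjusted p up to 0.0843), Pde9a without the first AAV-hpCas13d or second RH/RQ vehicle library (up to 0.380), Pde8a without any 1 of the 4 compared (up to 0.272), and Pde2a without the second AAV-hpCas13d or first RH/+ library (up to 0.193).

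Of 21 G protein subunits tested, 1 rose and 0 fell in RH/RQ vehicle against RH/+ vehicle hearts. Over all tested genes, 3.48% were called higher and 1.51% lower in that comparison. The shares were 1.22% and 0.827% in RH/RQ AAV-hpCas13d against RH/RQ vehicle hearts, and 2.33% and 0.53% in RH/RQ AAV-hpCas13d against RH/+ vehicle hearts. Gnao1, an inhibitory alpha subunit best known from neurons, was at 44.7 and 47.9 CPM in RH/RQ AAV-hpCas13d hearts, 49.1 and 48.3 CPM in RH/RQ vehicle hearts, and 20.98 and 28.4 CPM in RH/+ vehicle hearts. All 4 RH/RQ libraries were above both RH/+ libraries. Gnao1 rose against RH/+ vehicle hearts in RH/RQ vehicle hearts (log2 change 0.97, limma adjusted p = 1.23e-05) and in RH/RQ AAV-hpCas13d hearts (0.89, 7.54e-05), 2 comparisons that share the RH/+ libraries, and both calls were kept when any 1 library was left out. Of 17 receptor kinases, arrestins and RGS proteins, which switch receptor signals off, 2 fell in RH/RQ vehicle against RH/+ vehicle hearts, Rgs6 (−0.58, limma adjusted p = 0.0146) and Rgs7 (−0.72, 0.0187). Rgs6 was at 10.8 and 10.2 CPM in RH/RQ AAV-hpCas13d hearts, 10.3 and 11.01 CPM in RH/RQ vehicle hearts, and 15.3 and 17.5 CPM in RH/+ vehicle hearts. The call of Rgs6 in the vehicle hearts was lost when any 1 of the 4 libraries compared was left out, with adjusted p up to 0.207, and that of Rgs7 without the first RH/RQ vehicle or either RH/+ library, with adjusted p up to 0.192. In RH/RQ AAV-hpCas13d against RH/RQ vehicle hearts 1 of the 17 rose, Rgs7 (0.71, limma adjusted p = 0.0383), which neither edgeR (0.0603) nor DESeq2 (0.0729) called, and 1 fell, Rgs16 (−0.78, 0.0222). The Rgs7 call was lost without the first AAV-hpCas13d or either RH/RQ vehicle library (adjusted p up to 0.263), and that of Rgs16 without the first AAV-hpCas13d or first RH/RQ vehicle library (up to 0.250). In RH/RQ AAV-hpCas13d against RH/+ vehicle hearts 0 rose and 1 fell, Rgs6 (−0.60, limma adjusted p = 0.0172), lost without the second AAV-hpCas13d or either RH/+ library (up to 0.222).

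Of 12 substrates of protein kinase A in contraction, 2 fell in RH/RQ vehicle against RH/+ vehicle hearts, where 1.51% of all tested genes were called lower and 3.48% higher. Rrad, a small GTPase that restrains L-type calcium channels, was at 166 and 142 CPM in RH/RQ AAV-hpCas13d hearts, 125 and 108 CPM in RH/RQ vehicle hearts, and 189 and 206 CPM in RH/+ vehicle hearts. The RH/RQ vehicle libraries were lowest and the RH/+ libraries highest, with no overlap between groups. Rrad fell by 0.76 on the log2 scale in RH/RQ vehicle against RH/+ vehicle hearts (limma adjusted p = 3.12e-05), and that call was kept when any 1 library was left out. Between RH/RQ AAV-hpCas13d and RH/RQ vehicle hearts it was higher by 0.40 with limma (adjusted p = 0.0385), a call that edgeR did not make (0.103) and that was lost without the first AAV-hpCas13d or second RH/RQ vehicle library (up to 0.582). Cacnb2, a subunit of the same channels, fell to 56.2 and 56.9 CPM in RH/RQ vehicle hearts, against 73.4 and 76.9 CPM in RH/+ vehicle hearts (−0.40, limma adjusted p = 0.0157). Of 22 subunits, inhibitors and anchors of protein kinase A and other cAMP effectors, only the cAMP-binding membrane protein Popdc2 was called in RH/RQ vehicle against RH/+ vehicle hearts, at −0.38 (limma adjusted p = 0.0238). Leaving out any 1 of the 4 libraries compared ended the calls of Cacnb2 (adjusted p up to 0.163) and Popdc2 (up to 0.314). Limma called, in RH/RQ AAV-hpCas13d against RH/RQ vehicle hearts, 0 of the 21 G protein subunits and 0 of the 22 genes of the last list, with 0 and 6 at an unadjusted p under 0.05. The share of all tested genes called there was 2.05%, and 2096 of the 16804 were at an unadjusted p under 0.05.

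In RH/RQ vehicle against RH/+ vehicle hearts 2 of 11 makers and effectors of cGMP and 2 of 15 alpha-1 effectors rose, and 0 fell, in a comparison where 3.48% of all tested genes were called higher and 1.51% lower. Nos1, the neuronal nitric oxide synthase, rose to 1.61 and 3.04 CPM in RH/RQ vehicle hearts, against 0.499 and 0.401 CPM in RH/+ vehicle hearts (log2 change 1.16, limma adjusted p = 0.000510). Prkg1, the cGMP-dependent kinase, rose by 0.56 (adjusted p = 0.0173), Plcb1, a phospholipase C driven by Gq, by 0.68 (0.0107), and Prkca, protein kinase C alpha, by 0.43 (0.0169), all by limma. Prkca also rose in RH/RQ AAV-hpCas13d against RH/+ vehicle hearts, by 0.57 (limma adjusted p = 0.00277). In RH/RQ AAV-hpCas13d against RH/RQ vehicle hearts limma called 0 genes of either list, with 2 of the 11 and 1 of the 15 at an unadjusted p under 0.05. The share of all tested genes called in that comparison was 2.05%, and 2096 of the 16804 were at an unadjusted p under 0.05. The Nos1 call and the second Prkca call were kept when any 1 library was left out. Leaving out either library of either vehicle group ended the call of Prkg1 (adjusted p up to 0.216), the first RH/RQ vehicle or second RH/+ library that of Plcb1 (up to 0.148), and the second RH/RQ vehicle or either RH/+ library the first Prkca call (up to 0.232).

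**Figure D5:**
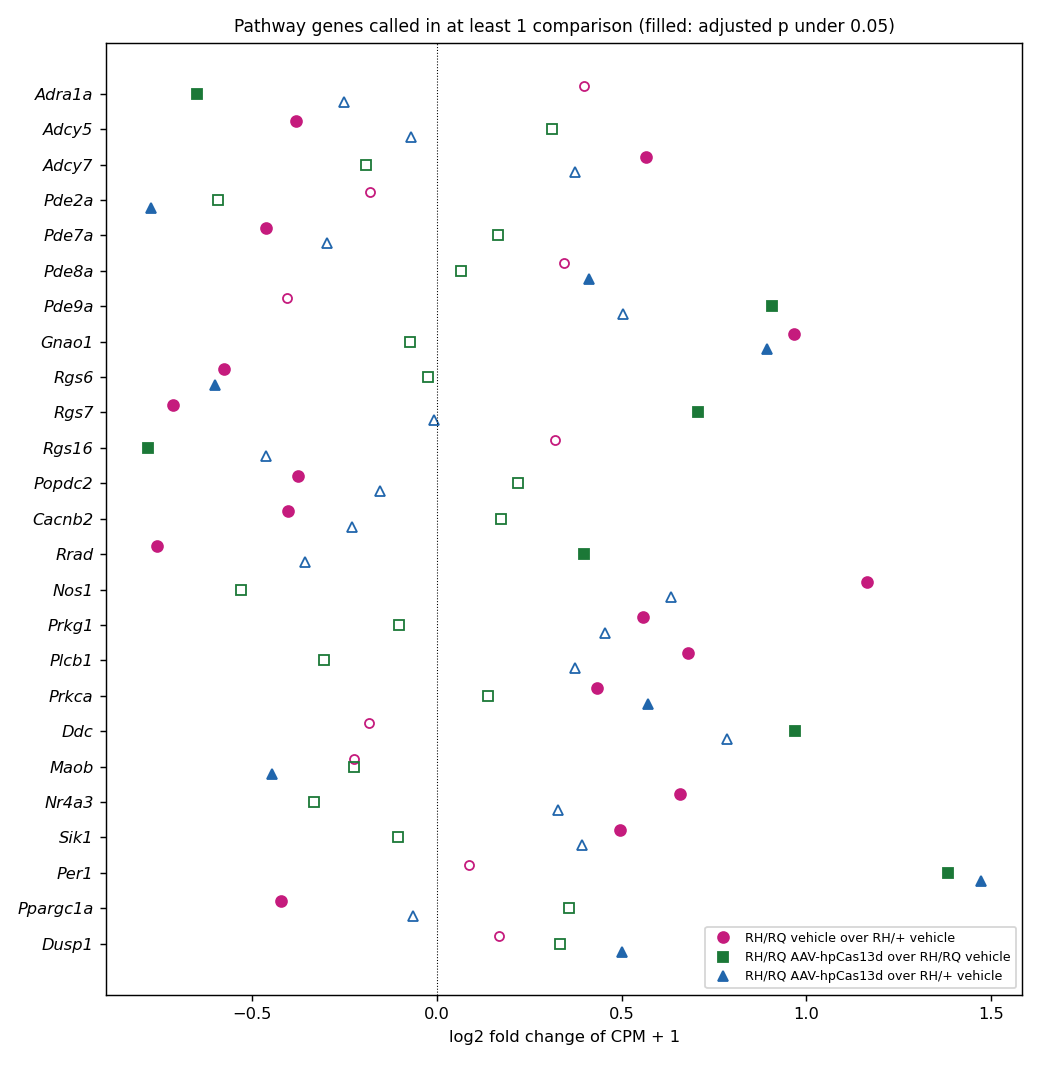
Log2 fold change of CPM + 1 in the 3 comparisons for the 25 tested pathway genes called in at least 1 of them, filled where the limma adjusted p was under 0.05 and open otherwise. Gnao1 lies at 0.97 and 0.89 in both comparisons against RH/+ vehicle hearts, and Per1 at 1.38 and 1.47 in both comparisons of RH/RQ AAV-hpCas13d hearts.

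Of 15 genes known to respond to cAMP, 2 rose and 1 fell in RH/RQ vehicle against RH/+ vehicle hearts. Over all tested genes, 3.48% were called higher and 1.51% lower in that comparison. The shares were 1.22% and 0.827% in RH/RQ AAV-hpCas13d against RH/RQ vehicle hearts, and 2.33% and 0.53% in RH/RQ AAV-hpCas13d against RH/+ vehicle hearts. Sik1, a kinase induced by cAMP, rose by 0.50 (limma adjusted p = 0.00832), Nr4a3, a nuclear receptor, rose by 0.66 (0.0319), and Ppargc1a, a coactivator of mitochondrial genes, fell by 0.42 (0.0127). In RH/RQ AAV-hpCas13d against RH/RQ vehicle hearts 1 rose, the clock gene Per1, which was at 59.1 and 47.6 CPM in RH/RQ AAV-hpCas13d hearts, 19.8 and 19.6 CPM in RH/RQ vehicle hearts, and 17.6 and 19.5 CPM in RH/+ vehicle hearts (1.38, limma adjusted p = 9.66e-08). Against RH/+ vehicle hearts Per1 (1.47, limma adjusted p = 4.77e-08) and the phosphatase gene Dusp1 (0.50, 0.0107) rose. The Per1 calls were kept when any 1 library was left out. Sik1 was lost without the second RH/RQ vehicle or either RH/+ library (adjusted p up to 0.106), Ppargc1a without either RH/RQ vehicle or the first RH/+ library (up to 0.236), Nr4a3 without any 1 of the 4 compared (up to 0.183), and Dusp1 without the first AAV-hpCas13d or first RH/+ library (up to 0.129). Of 10 genes for making, taking up and breaking down catecholamines, Ddc, a decarboxylase, rose to 4.30 and 4.19 CPM in RH/RQ AAV-hpCas13d hearts, against 1.08 and 2.45 CPM in RH/RQ vehicle hearts (0.97, limma adjusted p = 0.0186), a call that DESeq2 did not make (0.0592) and that was lost without either AAV-hpCas13d or the first RH/RQ vehicle library (up to 0.278). The X-linked Maob, a monoamine oxidase, was at 51.8 and 48.7 CPM in RH/RQ AAV-hpCas13d hearts, against 67.9 and 69.7 CPM in RH/+ vehicle hearts (−0.45, limma adjusted p = 0.00932), lost without either RH/+ library (up to 0.105). None of 13 other receptors coupled to Gs or Gi was called in any comparison by limma, with 3, 3 and 2 at an unadjusted p under 0.05. Of all 16804 tested genes, 2868 were under that threshold in RH/RQ vehicle against RH/+ vehicle hearts. For RH/RQ AAV-hpCas13d hearts the counts were 2096 against RH/RQ vehicle hearts and 2544 against RH/+ vehicle hearts.

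By pattern over the 6 libraries, the genes most like the called ones were found among 10491 tested genes averaging 5 CPM or more, as Pearson's r of log2(CPM + 1). Rpa2, a DNA-binding replication protein, at r = 0.994 and Ubl4a at 0.990 were most like Adcy5. Their levels varied little: Rpa2 lay between 12.1 and 13.7 CPM and Ubl4a between 105 and 110 CPM, while Adcy5 lay between 68.6 and 97.6 CPM. Rhbdl3 at r = 0.989 and She at 0.982 were most like Adra1a. Rhbdl3 was at 14.8 and 14.2 CPM in RH/RQ AAV-hpCas13d hearts, 17.9 and 19.1 CPM in RH/RQ vehicle hearts, and 14.7 and 16.2 CPM in RH/+ vehicle hearts. These r were picked as the highest among 10491 genes and are descriptions over 6 points that share 3 groups.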

How the data were processed

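Poly(A) RNA of 6 heart samples was analysed, with groups read from the labels. The authors deposited 3 tables of 4 libraries each with CPM, per the file headers, and their own log2 fold changes and p-values. HISAT2, HTSeq, DESeq2 and mm10 are named in the submitters' processing notes; versions, strand setting and annotation are not given in the sources used here. Every CPM value was a whole multiple of 1 read (100% of values, tolerance 0.001), so the count tests could be run on recovered reads. Sample columns without a sample numbered 0.

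The reported test is limma 3.58.1 (R 4.3.3) with a trend on log2(CPM + 1), a scale that understates the change of low genes. It was fitted to all 6 libraries on the 16804 genes that passed filterByExpr (minimum count 10), with Benjamini-Hochberg adjustment over all of them and calls under 0.05. The alternatives were edgeR 4.0.16 and DESeq2 1.42.0, scalings, filters, pseudocounts and a replicate block. Others were the 4 libraries of a comparison alone, leaving out genes of X and Y, and leaving out each library. A gene at 0 reads is limited to 3 counts, 0.0588 to 0.0827 CPM by library, for counting error only. Scripts were tested on simulated data.

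The 9 genes and all lists were chosen with earlier results of these data known, and 1 listed gene outside the 9 is not reported here. From each list the text names up to 3 genes a comparison with the smallest p and a mean of at least 1 CPM, and for each called gene the 2 genes most like it. Replicates of a group differed beyond sampling noise.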

Additional observations from a re-analysis of the deposited data

How the results depend on the processing

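Apart from leaving out 1 library, there were 12 other settings, and 1 of them fitted the 4 libraries of a comparison alone. Adcy5 in RH/RQ vehicle against RH/+ vehicle hearts and Adra1a in RH/RQ AAV-hpCas13d against RH/RQ vehicle hearts were each called in 11 of these 12. The calls were also made by edgeR (adjusted p = 0.0145 and 0.00174) and DESeq2 (0.00407 and 0.000399). With no filter on low values 0 of the 9 genes were called in either comparison (limma adjusted p = 0.164 and 0.243), and all genes called came to 57, 15 and 7 in the 3 comparisons, against 838, 344 and 480; the cause was not tested. Of the calls of these and other pathway genes, 30 were lost there, and Per1 in RH/RQ AAV-hpCas13d against RH/RQ vehicle hearts was kept (0.0422). Leaving out 1 library gave 0 to 1 called genes of the 9 in RH/RQ vehicle against RH/+ vehicle hearts, 0 to 2 in RH/RQ AAV-hpCas13d against RH/RQ vehicle hearts and 0 to 1 in RH/RQ AAV-hpCas13d against RH/+ vehicle hearts.

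The labels do not say what the leading digit of the sample titles stands for. Deviations of like-numbered samples correlated at 0.09, −0.03 and 0.18, values that do not decide whether like-numbered samples shared a batch. With that digit as a replicate block 3 of the 9 were called in RH/RQ AAV-hpCas13d against RH/RQ vehicle hearts (Adra1a, Adcy5 at adjusted p = 0.0431 and Adcy6 at 0.0175, with 567 genes in all), and 1, Adcy6 (0.0239), against RH/+ vehicle hearts.

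Small differences changed sign with the setting. In RH/RQ vehicle against RH/+ vehicle hearts Pde3a was −0.00155 with edgeR, −0.00469 with DESeq2, −0.000836 with TMM and −0.00397 with RLE factors, Pde4d was −0.031, −0.032, −0.023 and −0.026 in that order, and Adcy6 was 0.012 on CPM outside the mitochondrial genome. With 1 library left out, the ranges in that comparison were −0.097 to 0.055 for Adcy6, −0.17 to 0.22 for Pde4d, −0.12 to 0.029 for Adra1b and −0.55 to 0.18 for Ddc. In RH/RQ AAV-hpCas13d against RH/RQ vehicle hearts they were −0.19 to 0.048 for Adrb1 and −0.13 to 0.087 for Adra1b, and in RH/RQ AAV-hpCas13d against RH/+ vehicle hearts −0.18 to 0.042 for Adra1b and −0.30 to 0.086 for Pde4d. Counts of all called genes ran from 343 to 1156, 134 to 613 and 172 to 703 in the 3 comparisons with 1 library left out; a group left with 1 library is assumed to vary like the others.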
